A study of Homo sapiens with 12 samples.

Results

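The 32 genes described here, of 55765 gene symbols in the count files, make, sense or move cholesterol and fatty acids. They were chosen by name. Of these, 7 belong to the mevalonate steps, 11 to the later sterol steps, 5 sense sterol or carry its signal, 2 move sterol within the cell and 7 make or desaturate fatty acids. The cells were SH-SY5Y, a human neuroblastoma line derived from the bone marrow line SK-N-SH, that takes on a neuron-like form under all-trans retinoic acid (ATRA). The cells of all 12 samples received ATRA for 7 days. In the co-treatment experiment, the cells of 3 treated samples also received hydrogen peroxide (H2O2) over the whole differentiation. Those of 3 untreated controls received ATRA alone. In the pre-treatment experiment, the cells of 3 treated samples were given H2O2 in the 72 h before ATRA, beside 3 untreated controls. The dose is 10 mM in the labels, whereas the methods give the same figure in μM. The labels do not say whether replicates came from separate cultures, so the words treated cultures below stand for the treated samples. All libraries come from this 1 tumour line.

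Cholesterol is built from acetyl-CoA through mevalonate, farnesyl diphosphate, squalene and lanosterol. When sterol in the endoplasmic reticulum is low, SCAP carries the SREBP proteins, which SREBF1 and SREBF2 encode, to the Golgi, where proteases release their active part; the INSIG proteins hold SCAP back when sterol is plentiful. SREBP2 is best known for driving the sterol genes and SREBP1 for driving the fatty acid genes. Differentiating neurons need membrane lipid for their growing processes.

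Before any comparison, the pre-treatment controls had to be set apart from one another. Reads on genes numbered 27576276 to 98287391 per library. Controls 1 and 2 of the pre-treatment held 0.800 and 0.830 reads outside any annotated gene for each read on a gene, against 0.200 in control 3 and 0.263 to 0.462 in the other 9 libraries. Small structured RNA loci took 1.58% and 2.87% of the gene reads in controls 1 and 2, 17.6% in control 3 and 5.04% to 15.05% elsewhere. Every pre-treatment comparison is therefore given with all 6 libraries and with 5 libraries, that is without control 3, which is the set drawn in the study's own clustering. Controls 1 and 2, which that set keeps, lay outside the range of the treated cultures in both measures. In the 5-library set treatment and library composition therefore coincide, and which controls are typical is not known. Of the neuroblastoma markers, PHOX2A, HAND2, GATA2, DBH and CHGA each reached at least 124.5 CPM in every library, but TH stayed at or below 0.258 CPM. The blood and liver markers PTPRC and ALB did not exceed 0.706 and 0.0617 CPM, and EPCAM lay between 0.604 and 1.95 CPM. The symbol PECAM1 was not matched. The summed noradrenergic markers lay at 4440.3 to 5036.5 CPM in co-treatment controls, 3460.1 to 4216 in treated cultures, 3441 to 4735 in pre-treatment controls and 3324 to 3938 in treated cultures, with 0 of 9 tested called in either experiment with 6 libraries, and 2 higher and 4 lower without control 3. The summed mesenchymal markers lay at 386 to 740.3, 619 to 646, 556 to 1055 and 424 to 695 CPM in the same order, with COL1A2 and PRRX1 at or below 0.253 and 0.0758 CPM. Of the mesenchymal list, VIM (3.00 to 23.0 CPM) rose in both experiments and COL3A1 in the pre-treatment. In edgeR's quasi-likelihood test the log2FC of VIM was 1.16 in co-treatment (FDR = 0.0272) and 2.42 in pre-treatment with 6 libraries (FDR = 0.0443). In that 6-library fit 4 of 8 tested were positive and 4 negative. NOTCH2 (204 to 775 CPM) was among the negative (log2FC -0.85, FDR = 0.38), and it fell without control 3 (-1.03, FDR = 0.0231). Without control 3, 4 of 9 were higher and 1 lower, and 26.1% of all genes were called (13.2% higher and 12.8% lower). The part of these markers in the results that follow was not tested.

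Levels are given as CPM, the read count of a gene relative to its library's total after TMM normalisation over the 12 libraries. All 32 genes were expressed, with 207 or more reads in every library, and all passed the filter on low counts. Together they took 0.267% to 0.455% of the gene reads, the highest shares being those of pre-treatment controls 1 and 2. Per kilobase of merged exons, median levels were highest for SCD (84.1 CPM per kb), the desaturase that makes oleate, and for ACLY (72.3 CPM per kb), which supplies cytosolic acetyl-CoA. TM7SF2, a sterol C14 reductase, followed at 46.2 CPM per kb and INSIG1 at 39.2 CPM per kb. CYP51A1, the lanosterol demethylase, was lowest at 1.78 CPM per kb. The most variable levels over the 12 libraries were those of FASN, the fatty acid synthase (highest over lowest 6.83), SREBF1 (4.77), SREBF2 (3.18), STARD4 (3.17) and INSIG1 (3.05), whereas ACLY varied by 1.30.

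**Figure D1:**
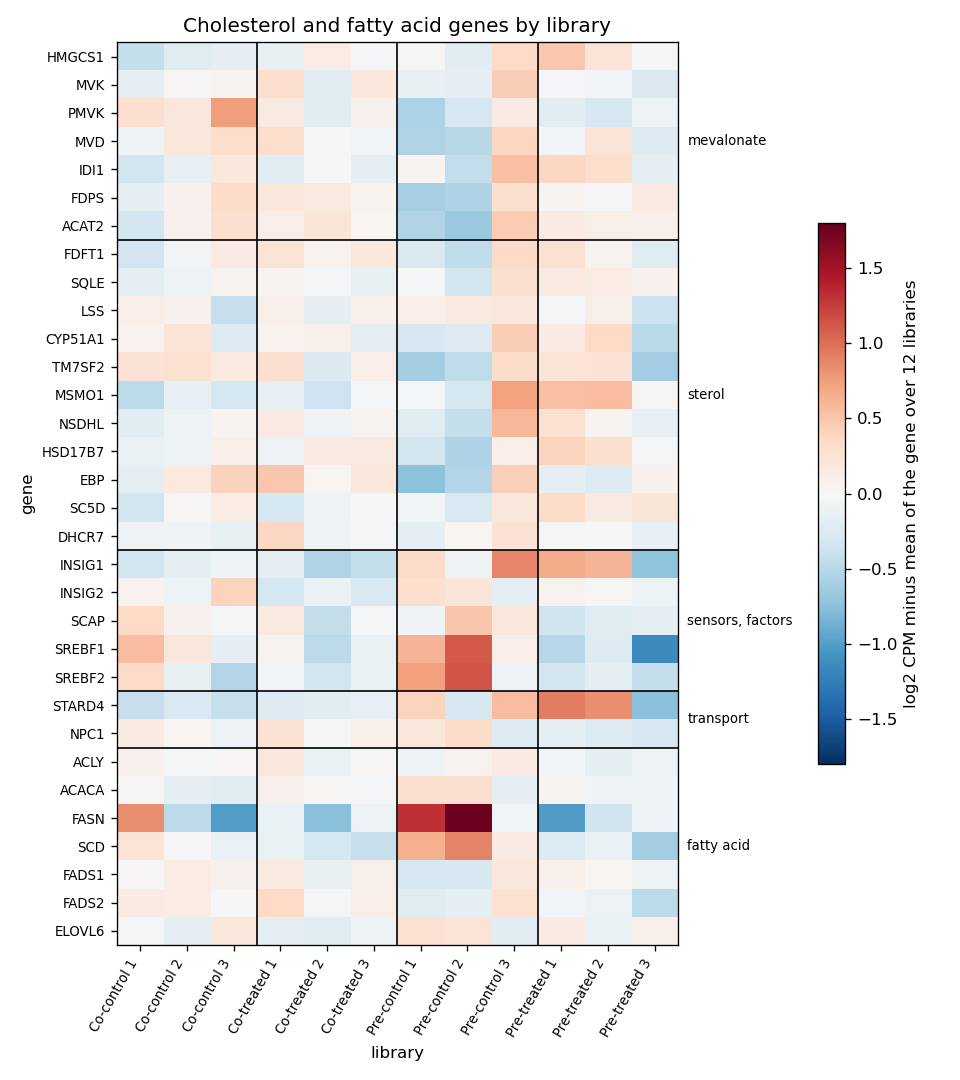
Level of each of the 32 genes (rows, by role) in each of the 12 libraries (columns), as log2 CPM minus the gene's mean over the libraries. Most of the 18 mevalonate and sterol enzymes are blue in pre-treatment controls 1 and 2, and all are at or above their mean in control 3, while SREBF1, SREBF2, FASN and SCD are darkest red in controls 1 and 2.

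RefSeq promoter windows of 300 bases, which end shortly after the start site, were matched for 28 of the 32 genes on GRCh38.p14; ACAT2, FDFT1, SQLE and FASN had no entry. The windows of the gene that encodes the transcription factor SREBP2, of a fatty acid enzyme and of both classes of cholesterol enzyme are shown because these genes had different directions in the pre-treatment. SREBF2 is shown from chr22:41832855-41833154 (plus strand), SCD from chr10:100346983-100347282 (plus strand), FDPS from chr1:155308616-155308915 (plus strand) and EBP from chrX:48521558-48521857 (plus strand). Capitals mark CCAAT or its reverse complement ATTGG and the sterol response element consensus TCACNCCAC.
SREBF2: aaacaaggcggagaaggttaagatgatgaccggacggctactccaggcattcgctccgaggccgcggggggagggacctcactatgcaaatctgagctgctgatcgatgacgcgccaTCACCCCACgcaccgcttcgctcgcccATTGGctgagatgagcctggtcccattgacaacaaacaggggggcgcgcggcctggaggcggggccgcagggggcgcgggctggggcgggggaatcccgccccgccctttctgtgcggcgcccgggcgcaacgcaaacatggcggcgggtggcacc
SCD: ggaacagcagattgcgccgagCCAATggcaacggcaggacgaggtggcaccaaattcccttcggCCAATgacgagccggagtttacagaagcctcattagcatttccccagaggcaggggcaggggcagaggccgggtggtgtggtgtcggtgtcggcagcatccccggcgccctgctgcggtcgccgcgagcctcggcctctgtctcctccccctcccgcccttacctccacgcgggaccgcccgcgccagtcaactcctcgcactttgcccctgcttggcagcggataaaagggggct
FDPS: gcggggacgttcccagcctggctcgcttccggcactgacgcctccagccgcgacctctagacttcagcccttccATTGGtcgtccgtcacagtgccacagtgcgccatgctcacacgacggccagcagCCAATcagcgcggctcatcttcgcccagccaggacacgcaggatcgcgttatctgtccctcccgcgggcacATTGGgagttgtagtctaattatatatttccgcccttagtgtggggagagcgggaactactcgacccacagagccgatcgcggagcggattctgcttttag
EBP: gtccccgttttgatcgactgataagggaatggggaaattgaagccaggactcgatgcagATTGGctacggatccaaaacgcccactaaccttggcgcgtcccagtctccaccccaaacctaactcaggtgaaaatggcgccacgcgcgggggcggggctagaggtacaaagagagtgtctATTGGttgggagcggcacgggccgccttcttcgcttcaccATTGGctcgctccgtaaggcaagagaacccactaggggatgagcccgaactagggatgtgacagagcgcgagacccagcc
Both strands were searched, and the capitalised motifs do not overlap in these windows. TCACNCCAC was found in 1 of 28 member windows, that of SREBF2 at base 118, against 1.13% of all 35116 windows and 1.15% of the 11448 windows of genes tested. CCAAT was found in 17 of 28 (60.7%), against 34.6% of all windows and 36.2% of windows of tested genes. It was present in 8 of 9 sterol enzymes, 4 of 6 mevalonate enzymes and 2 of 6 fatty acid genes. The E-box CACGTG was found in LSS, SC5D, INSIG1 and SCAP (14.3%, against 7.26% of all windows and 9.54% of windows of tested genes). The GC box GGGCGG was found in 26 of 28 (92.9%, against 45% of all windows and 66.3% of windows of tested genes). These are matches of letters to the fixed patterns given. Variants of the motifs were not searched for, so a window without a match may still hold such an element. Binding was not measured.

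In the co-treatment, where the comparison asked what H2O2 during differentiation does, none of the 32 genes passed FDR < 0.05 in edgeR's quasi-likelihood test, with 3 at an unadjusted p below 0.05; DESeq2, limma-voom and edgeR's exact test also called 0. Of all 22089 genes tested, 132 (0.598%) were called, so a list of this size would hold few calls at that rate. The median log2FC of the 32 genes was 0.02, against -0.00095 over all genes, and the values ran from -0.41 to 0.26. In bulk RNA, fewer cells of a type and less RNA per cell cannot be told apart.

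The smallest p in the co-treatment was that of PMVK, the phosphomevalonate kinase, at 32.6, 30.7 and 44.5 CPM in the controls and 29.7, 23.4 and 28.1 CPM in the treated cultures (log2FC -0.41, SE 0.16, FDR = 0.50). INSIG2, which retains SCAP in the endoplasmic reticulum, gave 29.4, 26.5 and 37.2 against 22.7, 25.8 and 23.3 CPM (log2FC -0.37, SE 0.15, FDR = 0.50). For both genes every treated library lay below every control, and the exact permutation p was 0.1, the smallest that 3 against 3 can give. SCD was likewise lower in every treated library, at 571, 482 and 442 against 440.3, 384 and 358 CPM (log2FC -0.34, SE 0.14, FDR = 0.54). HMGCS1, which makes the substrate of the rate-limiting step of the pathway, was higher in every treated library (44.7, 51.6 and 53.0 against 54.7, 66.1 and 58.2 CPM), as was STARD4, a soluble carrier of sterol (70.3, 78.2 and 70.7 against 80.1, 82.6 and 84.9 CPM). These 2 higher and 3 lower genes compare with 6.65% and 7.3% of all genes whose groups did not overlap in the same directions.

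With all 6 libraries of the pre-treatment, again none of the 32 genes passed FDR < 0.05 in edgeR's quasi-likelihood test, where 6 of 24743 genes did (0.0242%). At an unadjusted p below 0.05 there were 5, all lower in treated cultures: SREBF1, SREBF2, SCAP, FASN and SCD (FDR between 0.32 and 0.38). Those 5 and LSS, the lanosterol synthase, were the 6 genes whose groups did not overlap, all lower, against 8.02% of all genes that were lower and 8.24% that were higher in this way. Without control 3, 12 genes were called, 7 higher and 5 lower, which is 37.5% of the 32 genes against 26.1% of the 26350 tested (13.2% higher and 12.8% lower). In that set 12 genes were higher and 10 lower with groups that did not overlap, against 29.3% and 28.6% of all genes. Scaled by library size only, the split of the calls was 2 higher and 9 lower, against 5.25% and 18.6% of all genes, with the median of all genes at -0.21 instead of 0.01.

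**Figure D2:**
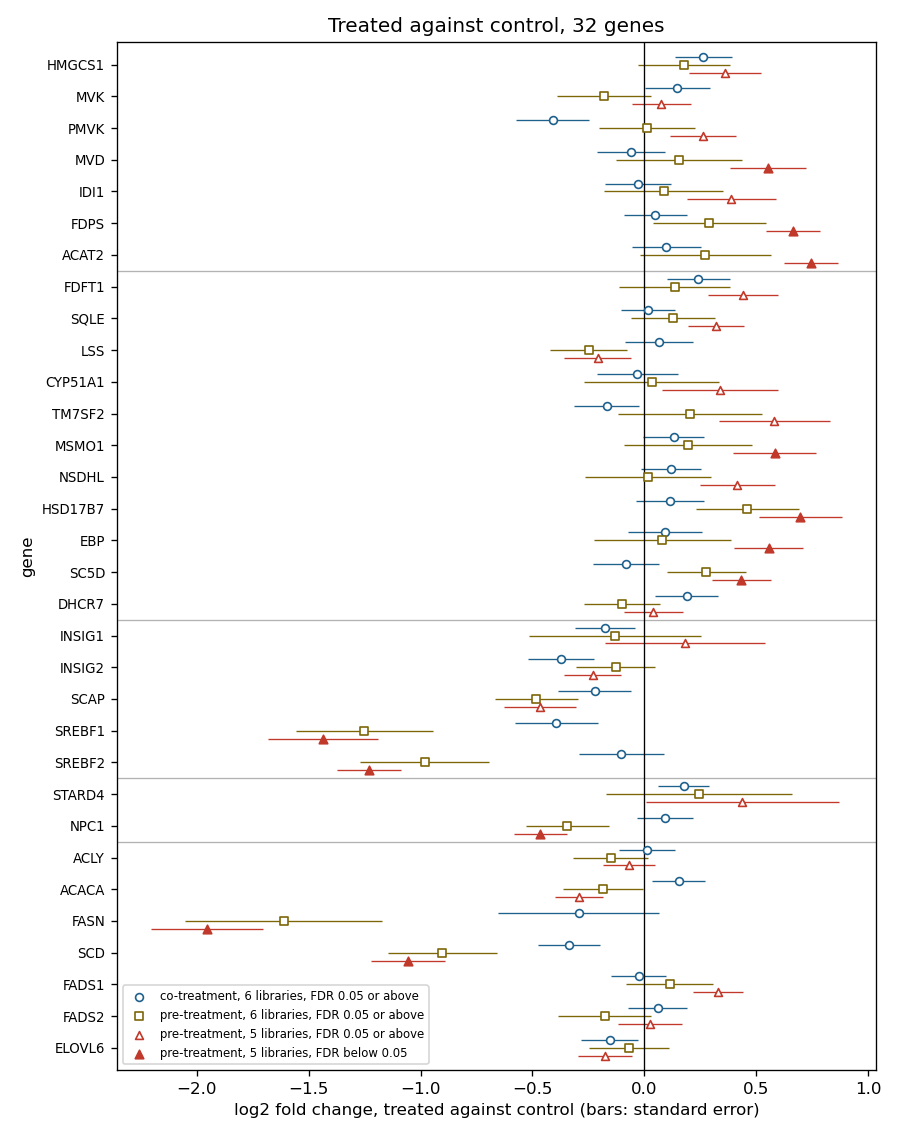
Log2 fold change of treated against control cultures for the 32 genes in co-treatment (circles), pre-treatment with 6 libraries (squares) and pre-treatment with 5 libraries (triangles), with bars of 1 standard error and filled symbols for FDR below 0.05. Filled symbols appear in the 5-library fit alone, 7 to the right and 5 to the left of 0, and SREBF1, SREBF2, FASN and SCD lie farthest left in both pre-treatment fits.

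The factor genes and 2 fatty acid enzymes stood lowest after pre-treatment. SREBF2 (chr22:42229109-42303310 on hg19, plus strand) gave 106, 140.3 and 59.2 CPM in the controls and 50.6, 56.7 and 47.3 CPM in the treated cultures. All treated libraries lay below all controls, with control 3 close to the treated range. With 6 libraries the gene was 1.97-fold lower (log2FC -0.98, SE 0.29, FDR = 0.32), and without control 3 it fell 2.35-fold (log2FC -1.23, SE 0.14, FDR = 0.00152). Against control 3 alone, a comparison added after seeing the data in which the single control is assumed to vary like the treated group, the log2FC was -0.20 (SE 0.16). In the co-treatment the levels overlapped, at 81.1, 58.3 and 44.1 CPM in controls and 61.6, 50.4 and 59.0 CPM in treated cultures.

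SREBF1 (chr17:17713713-17740316, minus strand) gave 124, 174 and 88.6 CPM in pre-treatment controls and 56.9, 68.9 and 36.6 CPM in treated cultures, again with no overlap. Its log2FC was -1.25 with 6 libraries (SE 0.30, FDR = 0.32), -1.43 without control 3 (SE 0.25, FDR = 0.00574) and -0.71 against control 3 alone (SE 0.29). The call was made without control 3 and was lost when control 2 was also left out (FDR = 0.0566). In the co-treatment the controls were at 119.9, 93.6 and 72.3 CPM and the treated cultures at 84.6, 58.4 and 74.8 CPM, which overlap. The exons of RAI1, on the opposite strand, share 6.75% of the merged exonic length of SREBF1, and the strand setting of the counting is not given in the sources used here.

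FASN (chr17:80036214-80056170, minus strand) had the greatest difference of the 32 genes. Its pre-treatment controls were at 467, 632 and 181 CPM and its treated cultures at 92.5, 146 and 179 CPM, so that control 3 was level with the highest treated library. The log2FC was -1.61 with 6 libraries (SE 0.44, FDR = 0.32) and -1.95 without control 3, a 3.87-fold fall (SE 0.25, FDR = 0.0021). Against control 3 alone it was -0.38 (SE 0.30). FASN also varied most among the co-treatment controls (333, 135 and 93.2 CPM), whose treated cultures lay within that range (172, 111 and 175 CPM).

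SCD (chr10:102106990-102124583, plus strand) gave 749, 887 and 532 CPM in the pre-treatment controls and 408, 440.4 and 310.2 CPM in the treated cultures. No treated library reached a control, and control 3 was nearest. The log2FC was -0.90 with 6 libraries (SE 0.25, FDR = 0.32), -1.06 without control 3 (SE 0.17, FDR = 0.00431) and -0.46 against control 3 alone (SE 0.20). SCD was the only one of these 4 genes that was lower in every treated library of both experiments. A processed copy, SCDP1, is counted as a gene of its own, and reads shared with it are uncertain.

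Among the other genes that sense sterol, SCAP, the carrier of SREBP, gave 115, 169 and 138 CPM in pre-treatment controls and 93.1, 102 and 106 CPM in treated cultures. These groups did not overlap, and the log2FC was -0.48 with 6 libraries (SE 0.18, FDR = 0.38) and -0.47 without control 3 (SE 0.16, FDR = 0.0625). SCAP moved least of the 5 with the choice of controls, at -0.46 against control 3 alone (SE 0.14). In the co-treatment it was at 153, 126 and 117 against 134, 89.0 and 117 CPM. INSIG2 overlapped between the 6 libraries (34.8, 32.7 and 25.1 against 29.4, 28.7 and 26.5 CPM). NPC1, which exports cholesterol from lysosomes, gave 51.5, 56.4 and 38.2 against 40.4, 38.2 and 36.3 CPM; it fell without control 3 (log2FC -0.47, SE 0.12, FDR = 0.023) and not with it (log2FC -0.34, FDR = 0.52).

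**Figure D3:**
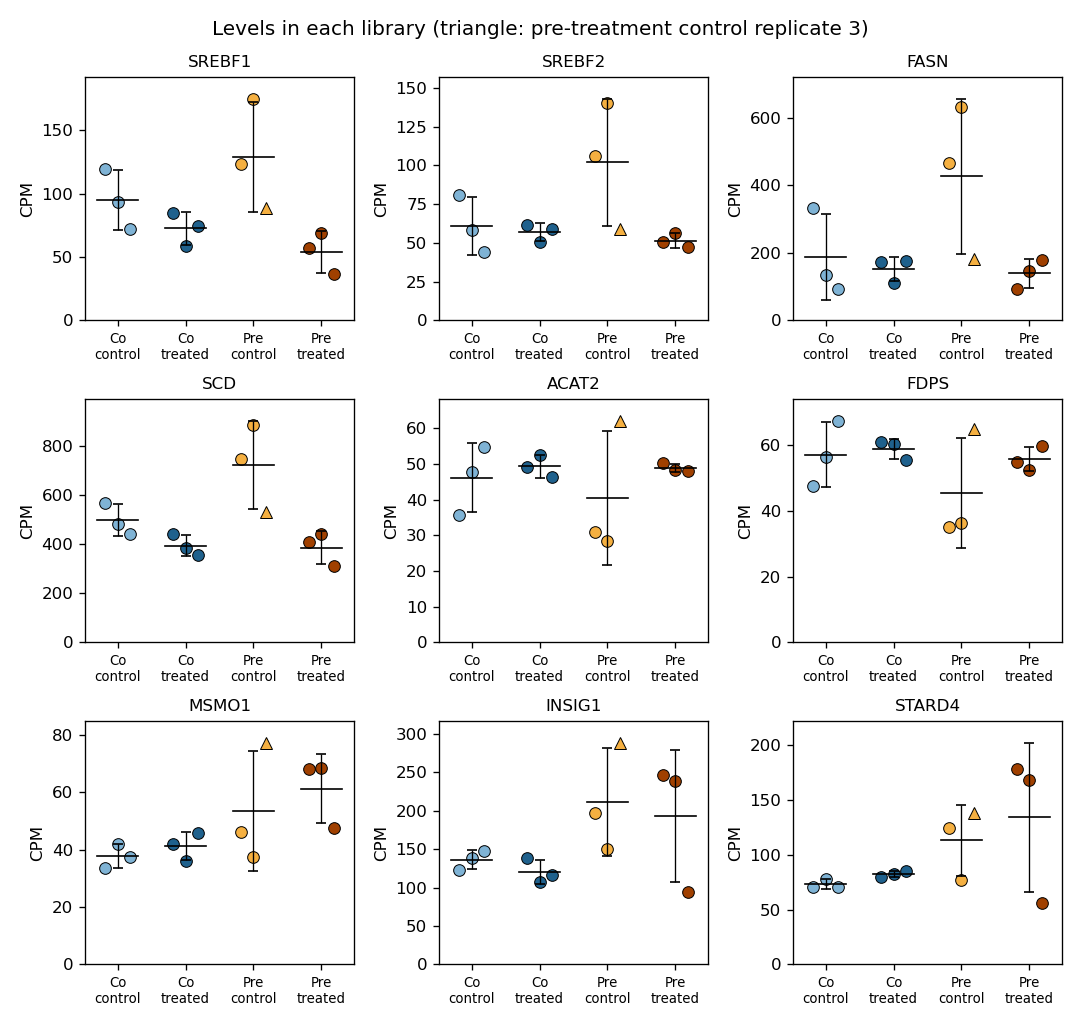
CPM of 9 of the genes in each library, by group, with the mean as a horizontal line and the standard deviation as a bar over 3 libraries; the triangle is pre-treatment control 3. For SREBF1, SREBF2, FASN and SCD the triangle lies near the treated libraries, while for ACAT2, FDPS, MSMO1 and INSIG1 it lies above the other controls.

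The enzymes of cholesterol synthesis had the other direction in the 5-library set. All 7 mevalonate genes and 10 of the 11 sterol genes had a positive log2FC there, with medians of 0.39 and 0.43 against 0.01 over all genes, and 3 and 4 of them rose, where 13.2% of all genes did. With 6 libraries the medians were 0.16 and 0.13 and none was called. Against control 3 alone, 7 of 7 and 9 of 11 were negative, with medians of -0.34 and -0.31 against 0.09 over all genes, and none was called. Between these sets the sign of the log2FC turned for all 18 enzymes except LSS (-0.21 and -0.28), HSD17B7 (0.70 and 0.11) and SC5D (0.43 and 0.05). Control 3 exceeded the mean of controls 1 and 2 for all 18 enzymes (median log2 ratio 0.71 in both classes, against -0.05 over all genes), compared with 1 of 5 sensors and factors and 3 of 7 fatty acid genes. Scaled by library size only, the 5-library set had 6 of 7 and 9 of 11 positive, with medians of 0.16 and 0.21 against -0.21 over all genes, and 2 and 0 were called higher against 5.25% of all genes.

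ACAT2 (chr6:160183077-160200144, plus strand) joins acetyl-CoA units ahead of mevalonate and was among the enzymes whose sign turned. Its controls were at 31.1, 28.4 and 62.0 CPM and its treated cultures at 50.3, 48.5 and 48.2 CPM, so that the treated libraries lay above controls 1 and 2 and below control 3. The log2FC was 0.75 without control 3 (SE 0.12, FDR = 0.0046), 0.27 with it (SE 0.29, FDR = 0.74) and -0.34 against control 3 alone (SE 0.14). Opposite-strand exons of SOD2 and TCP1 share 22.2% of the exonic length of ACAT2. FDPS (chr1:155278539-155290457, plus strand), which makes farnesyl diphosphate, gave 35.2, 36.5 and 64.9 CPM in controls and 54.99, 52.5 and 59.7 CPM in treated cultures (log2FC 0.66 without control 3, SE 0.12, FDR = 0.00657; 0.29 with it, FDR = 0.69). For FDPS, 18.6% of the exonic length is shared with RUSC1-AS1 on the opposite strand, and 8 FDPS pseudogenes are counted separately. In the co-treatment both genes overlapped between groups, at 35.9 to 54.9 CPM for ACAT2 and 47.5 to 67.3 CPM for FDPS.

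Of the other enzymes called without control 3, MVD, which makes isopentenyl diphosphate, was at 15.9, 16.4 and 30.2 CPM in controls and 22.5, 27.5 and 19.6 CPM in treated cultures (log2FC 0.55, FDR = 0.0451). HSD17B7, a sterol ketoreductase, was at 10.1, 8.68 and 13.8 against 16.7, 15.6 and 12.6 CPM (log2FC 0.70, FDR = 0.0273). It had the highest log2FC of the 32 genes with 6 libraries, 0.46 (SE 0.23, FDR = 0.50). EBP, a sterol isomerase, was at 19.3, 22.4 and 43.5 against 28.8, 27.5 and 34.1 CPM (log2FC 0.56, FDR = 0.0308). MSMO1, the C4 methyl oxidase, gave 46.1, 37.4 and 77.1 against 68.3, 68.4 and 47.5 CPM (log2FC 0.58, FDR = 0.0494). SC5D, the lathosterol desaturase, gave 36.3, 31.1 and 43.1 against 47.7, 42.3 and 43.8 CPM (log2FC 0.43, FDR = 0.0434). In all 5 the value of control 3 lay among or above the treated libraries. In the co-treatment their groups overlapped, with log2FC between -0.08 (SC5D) and 0.13 (MSMO1). Reads of HSD17B7 are uncertain where its pseudogenes HSD17B7P1 and HSD17B7P2 match.

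Treated replicate 3 of the pre-treatment also differed from treated replicates 1 and 2 in these genes. It was below their mean for 25 of 32 genes, and for 10 of 11 sterol enzymes (median log2 ratio -0.36, against 0.00 over all genes). The gap was widest for STARD4 (178, 168 and 56.1 CPM) and INSIG1 (247, 239 and 94.3 CPM), both known targets of SREBP. Their pre-treatment controls were at 125, 76.9 and 138 CPM and at 198, 149.8 and 288 CPM, so the spread within each group exceeded the difference between groups (log2FC 0.24, SE 0.42, and -0.13, SE 0.38, with 6 libraries). In the co-treatment, INSIG1 was at 123, 139 and 147 CPM in controls and 138, 108 and 116 CPM in treated cultures. Leaving out treated replicate 3 from the 5-library set raised the count of calls to 22 of 32, of which 15 were higher, while 33.1% of all genes were called in that fit and 15.9% were higher.

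In the co-treatment, 6-library and 5-library fits with TMM scaling and the quasi-likelihood test, no call was made for the remaining fatty acid genes. Some alternatives to these fits called more genes, as counted in the closing section. ACLY, ACACA (the first committed enzyme), FADS1, FADS2 (the desaturases of polyunsaturated fatty acids) and ELOVL6 (an elongase) had log2FC between -0.18 and 0.11 with 6 pre-treatment libraries and between -0.29 and 0.33 with 5. The lowest of these, ACACA, was at 192, 192 and 141 CPM in controls and 163, 149 and 150.0 CPM in treated cultures. Scaled by library size only, ACACA (log2FC -0.51, FDR = 0.0107) and ELOVL6 (log2FC -0.40, FDR = 0.0437) were called lower in the 5-library set by edgeR's quasi-likelihood test. The other enzymes without a call in the co-treatment, 6-library and 5-library fits with TMM scaling were HMGCS1, MVK, PMVK, IDI1, FDFT1, SQLE, LSS, CYP51A1, TM7SF2, NSDHL and DHCR7. Without control 3 their log2FC ran from -0.21 (LSS) to 0.58 (TM7SF2).

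An interaction term asked whether the effect of H2O2 differed between the 2 experiments. With 12 libraries, none of the 32 genes passed (2 at an unadjusted p below 0.05, SREBF1 and SREBF2), against 0.0287% of all genes. With 11 libraries, without pre-treatment control 3, SREBF2 (difference of log2FC, pre-treatment minus co-treatment, -1.18, SE 0.27, FDR = 0.0224) and NPC1 (-0.61, SE 0.17, FDR = 0.0419) passed, against 8.02% of all genes tested. SCD was just outside (-0.77, SE 0.23, FDR = 0.05002), followed by ACACA (-0.50, FDR = 0.0585), SREBF1 (-1.10, FDR = 0.0607) and FASN (-1.72, FDR = 0.0638). For ACAT2 and FDPS the differences were 0.60 (FDR = 0.0854) and 0.56 (FDR = 0.0784). A difference between the experiments was therefore called for SREBF2 and NPC1 without control 3 and for no gene with it.

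Other genes of the same pathways were examined as 4 lists with 56 genes, of which 53 were tested in the co-treatment and 54 in the other fits. In the co-treatment MYLIP, a ubiquitin ligase that degrades lipoprotein receptors and is a target of the sterol-activated LXR factors, was the only one called (log2FC -1.15, SE 0.17, FDR = 0.00969). In the pre-treatment its log2FC was 0.42 with 6 libraries and 0.54 with 5, neither called, and the interaction was 1.63 with 11 libraries (FDR = 0.00865) and 1.55 with 12 (FDR = 0.13). No gene of the 4 lists was called with 6 pre-treatment libraries, where 5 had an unadjusted p below 0.05. Without control 3, 15 of 54 were called, 9 higher and 6 lower, near the 26.1% of all genes.

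By list, 8 of the 14 genes of SREBP processing and sterol uptake were called in that set (57.1%), 5 higher and 3 lower. Of all genes 26.1% were called there (13.2% higher and 12.8% lower). The efflux and storage, isoprenoid and fatty acid lists had 10%, 33.3% and 14.3% of their tested genes called. LRP1, an endocytic receptor (log2FC -2.11, SE 0.15), and MBTPS2, the site-2 protease that releases SREBP (log2FC -1.12, SE 0.12), fell, while LIPA, the lysosomal acid lipase, rose (log2FC 0.79, SE 0.15). Of the efflux and storage genes, ABCG1, a sterol exporter, was the only one called (log2FC -0.95, SE 0.21). In the isoprenoid branch 3 of 9 tested were called, GGPS1 and FNTA higher and NUS1 lower (log2FC 0.51, 0.37 and -0.68). In fatty acid elongation and activation 3 of 21 tested were called, namely ACSL4 and HACD3 higher and ACACB lower (log2FC 0.58, 0.48 and -0.72). Each of these calls was absent with control 3 included.

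In the pre-treatment the fold changes of the 32 genes tended to decrease with merged exonic length. Across the 32 genes, Spearman's rho between log2FC and merged exonic length was -0.58 with 5 libraries and -0.45 with 6, against -0.01 and -0.03 across all genes with a length. In the co-treatment it was 0.08. With GC content it was -0.30 with 5 libraries and -0.45 with 6, against -0.12 and -0.23 across all genes. These correlations are across genes of the same libraries, which are not independent replicates, and no test was made. SREBF1, SREBF2, FASN and NPC1 have 8234, 8053, 9321 and 9705 bases of merged exons, and the called enzymes EBP, ACAT2, MSMO1, FDPS, MVD and HSD17B7 have 1768, 2639, 2852, 3718, 4717 and 4784. SC5D, at 10054 bases, is an exception among the genes that rose, and SCD, at 5245, is the shortest that fell. In controls 1 and 2 the share of reads outside genes was also highest, as given above; the part of length, GC content or library composition in the fold changes was not tested.

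**Figure D4:**
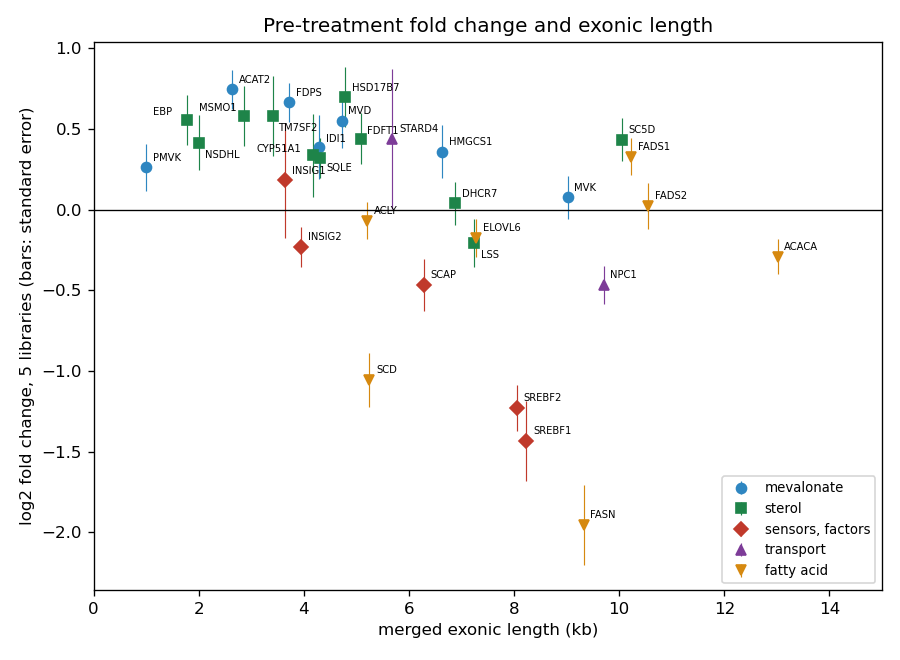
Log2 fold change without control 3 (vertical axis, bars of 1 standard error) against merged exonic length in kb (horizontal axis) for the 32 genes, by role. The called genes below 0 (SREBF1, SREBF2, FASN, NPC1 and SCD) have 5245 bases or more, and most mevalonate and sterol enzymes lie above 0 at shorter lengths.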

How the data were processed

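Total RNA of SH-SY5Y cells was depleted of ribosomal RNA and made into the 12 libraries with a stranded kit. The authors trimmed reads with cutadapt 2.10 after FastQC 0.11.8, mapped them to hg19 with HISAT2 2.1.0 and deposited whole-number counts per gene from HTSeq 0.7.2; the annotation version and the strand setting are not given in the sources used here. The 2 deposited tables of the authors' own fold changes and p-values were not used.

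Rows that name no gene were left out of library sizes. Genes were kept at the CPM of 5 counts in the smallest library, in as many libraries as the smaller group. Groups within each experiment were compared with edgeR 4.0.16 (R 4.3.3; TMM, quasi-likelihood test), with Benjamini-Hochberg adjustment over all genes tested and a call at FDR below 0.05; the study used the exact test. Without control 3, the pre-treatment rests on 2 controls. limma 3.58.1 and DESeq2 1.42.0 were alternatives. The code was tested on simulated counts. p-values measure the spread between these samples, which may be technical. Replicates of a group differed beyond sampling noise (chi-square per degree of freedom 24.8 to 545). The 32 genes and the other gene lists were chosen with earlier results of these data known; 1 of the markers is not reported here. Every one of the 32 was to be named; values per library were to be given for those called in any comparison and for INSIG1, INSIG2, SREBF1, SREBF2 and SCAP, and, of each other list, fold changes for up to 3 called genes by smallest p. Exonic lengths, gene positions and overlaps came from GENCODE on hg19, promoters from RefSeq on GRCh38.p14.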

Additional observations from a re-analysis of the deposited data

Results flagged for a closer look

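For 2 of the 32 genes the change under H2O2 differed between the experiments in the interaction test of edgeR with 11 libraries, which is 6.25% of the 32 against 8.02% of all genes tested in that fit. For SREBF2, the log2FC of the pre-treatment minus that of the co-treatment was -1.18 (FDR = 0.0224); the log2FC was -1.23 in the pre-treatment without control 3 and -0.10 in the co-treatment. The call held in 15 of 19 alternatives, with FDR up to 0.134. For NPC1 the difference was -0.61 (FDR = 0.0419), from log2FC of -0.47 and 0.09, and the call held in 7 of 19 alternatives, with FDR up to 0.217. With all 12 libraries neither was called (SREBF2 -0.91, FDR = 0.55; NPC1 -0.47, FDR = 0.56).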

How the results depend on the processing

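No gene changed direction in any alternative among those followed, namely the genes called and those whose groups did not overlap in a fit over all libraries of an experiment, each within its own alternatives. Against control 3 alone (added after seeing the data), an alternative to the 6-library fit with 0 calls, ACAT2, EBP, FDPS, MSMO1 and MVD, called higher in the 5-library set, had log2FC of -0.54 to -0.22. In the co-treatment 0 of 32 genes were called in all 17 alternatives, where at most 1.55% of all genes were. With 6 pre-treatment libraries the count of 0 became 2 in the exact test, 4 with DESeq2 and 2 with no filter, all lower. Those fits called 1.1%, 2.85% and 0.772% of all genes (0.493%, 1.88% and 0.516% lower). With 1 library left out the count was 0 to 12 (0 to 7 higher, 0 to 5 lower). All 12 came from leaving out control 3, a fit that called 26.1% of all genes. With 5 libraries the 12 calls (7 higher, 5 lower) became 2 higher and 9 lower by library size only. There were 4 higher without small structured RNA loci or in 1 fit over 11 libraries (added after seeing the data). When an absolute log2FC above 1 was also asked, 4 remained in all, with 0 higher. Of all genes these fits called 5.25%, 11.9%, 11.8% and 2.98% higher, and 18.6%, 13.4%, 12.8% and 8.23% lower. With 1 library left out the calls were 5 to 22 (2 to 15 higher, 3 to 7 lower): 7 without control 1, 5 without control 2, 6 without treated replicate 1 or 2, and 22 without treated replicate 3. The shares of all genes were 15.8% and 5.79% without controls 1 and 2. They were 12.5%, 15.5% and 33.1% without treated replicates 1, 2 and 3. Of 15 alternatives, which leave out the fold threshold, ACAT2, FASN, FDPS, SCD and SREBF2 kept their calls in all and SREBF1 in 14; under the fold threshold FASN, SCD, SREBF1 and SREBF2 remained. HSD17B7, EBP, MVD, SC5D, MSMO1 and NPC1 lost theirs in 4 to 9. The 2 calls of the interaction with 11 libraries became 5 with DESeq2, limma-voom or library size only, against 13.6%, 9.02% and 8.23% of all genes. There was 1 without small structured RNAs (9.43%), 6 with no filter (2 higher, 4 lower, 9.09%) and 1 with the fold threshold (5.11%). With 1 library left out there were 0 to 9 (0 to 3 higher, 0 to 6 lower). The count was 0 without co-treatment control 2 or treated replicate 3 or pre-treatment control 2 or treated replicate 1, where 1.18% to 2.86% of all genes were called. It was 9 without co-treatment control 1, against 17.6% of all genes. With 12 libraries leaving out 1 gave 0 to 2, against at most 8.02% of all genes. The causes were not tested. With the replicate block the 5-library set gave 24 calls (17 higher), against 40.8% of all genes (22.3% higher). The 11-library interaction gave 5 (1 higher, 4 lower), against 10.5%. Same-numbered samples did not deviate together from their group means (correlations -0.28 to 0.03). With 3 libraries a group and control 3 standing apart, these values cannot decide whether the numbers pair the samples. The labels do not state a pairing. Depth limited no gene, the lowest count being 207; the limits are 3 libraries a group and unlike pre-treatment controls.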
